A study of Homo sapiens with 8 samples.

Results

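The sites described here are regions of open chromatin that had a peak in every day 4 library and in no day 2 library of LX-2 cells, a line of human hepatic stellate cells. Peaks of the 8 lists were joined into 1 region where they shared 1 bp or more, and 330 of the 102366 merged regions, or 0.322%, met this rule. The presence of the peaks chose the sites, so the difference between the days at these sites is a description and was not tested. The cells of all groups were wild type and were grown on hydrogels coated with fibronectin, either soft (about 2 kPa) or stiff (about 40 kPa), until day 2 (D2) or day 4 (D4). Each of the groups D2 soft and D2 stiff, and likewise D4 soft and D4 stiff, had 2 replicate libraries from this 1 cell line. The question behind the design was how matrix stiffness alters accessible chromatin while the cells become fibrogenic. The labels do not say that replicates came from separate cultures, so a p-value measures only the spread between these libraries.

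ATAC-seq finds open chromatin with a transposase, which inserts sequencing adapters where DNA is not tightly packed. Hepatic stellate cells store vitamin A in the healthy liver and turn into contractile, collagen-secreting myofibroblasts when the liver is injured. In adherent mesenchymal cells, many open sites far from promoters are enhancers that carry motifs of AP-1, a dimer of JUN and FOS family proteins, or of TEAD, the DNA-binding partner of the mechanosensitive coactivators YAP and TAZ. Promoters of widely used genes are often rich in G and C and stay open in most cells.

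The labelled cell type was checked at marker genes. Of the stellate cell and fibroblast markers, 6 of 10 had a peak within 1 kb of their canonical start in all 8 lists (COL1A1, PDGFRB, ACTA2, VIM, TIMP1 and SPARC), COL1A2 in 6 lists, and COL3A1, DES and LUM in none. Of the hepatocyte, endothelial and cholangiocyte markers 0 were in all 8 lists. The cholangiocyte marker SOX9 was in 7, the endothelial marker TEK in 2, and the hepatocyte markers SERPINA1 and APOB in 1 each. PECAM1 had no matching canonical transcript in the annotation and was left out. CD68 and CD14 of the 6 leukocyte markers were in all 8 lists. The lists held 29789 to 72840 peaks each, and the depth estimated from them ranged from 0.780 to 3.15 fragments per kb. D2 soft replicate 1 had both the shortest list and the lowest depth.

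The sequences at the summits of 9 sites are shown because they hold the AP-1 and TEAD letters that recur in this set, or lie near a gene of the matrix, of actin or of Wnt signalling. Each is 201 bp of the plus strand of hg19 around the summit of the strongest of the 4 day 4 peaks, and capitals mark every match to the motifs that were searched. The windows are chr6:12709399-12709599 upstream of PHACTR1, chr1:78949801-78950001 in an intron of PTGFR, chr6:48528217-48528417 in intergenic sequence with PTCHD4 as the nearest coding gene, chr7:28795071-28795271 in an intron of CREB5, chr7:33037956-33038156 at an internal start of FKBP9, chr4:175424300-175424500 in an intron of HPGD, chr2:202879134-202879334 upstream of FZD7, chr6:75860765-75860965 in an intron of COL12A1 and chr2:20630822-20631022 upstream of RHOB.
PHACTR1: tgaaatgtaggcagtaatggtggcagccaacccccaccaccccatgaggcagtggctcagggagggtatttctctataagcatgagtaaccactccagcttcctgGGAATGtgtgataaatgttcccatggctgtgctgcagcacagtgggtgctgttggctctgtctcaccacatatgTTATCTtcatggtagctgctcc
PTGFR: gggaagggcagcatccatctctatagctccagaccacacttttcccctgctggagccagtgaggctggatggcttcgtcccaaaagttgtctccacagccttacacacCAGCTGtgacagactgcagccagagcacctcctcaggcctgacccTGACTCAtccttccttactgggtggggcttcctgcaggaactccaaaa
PTCHD4: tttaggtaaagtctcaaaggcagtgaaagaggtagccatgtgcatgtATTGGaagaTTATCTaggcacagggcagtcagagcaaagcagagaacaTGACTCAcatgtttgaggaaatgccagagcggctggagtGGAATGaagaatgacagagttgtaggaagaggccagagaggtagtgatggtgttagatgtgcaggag
CREB5: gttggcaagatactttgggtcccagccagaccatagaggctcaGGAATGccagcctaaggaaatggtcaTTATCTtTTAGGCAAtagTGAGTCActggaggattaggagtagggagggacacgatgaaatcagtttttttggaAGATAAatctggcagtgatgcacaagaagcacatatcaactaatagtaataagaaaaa
FKBP9: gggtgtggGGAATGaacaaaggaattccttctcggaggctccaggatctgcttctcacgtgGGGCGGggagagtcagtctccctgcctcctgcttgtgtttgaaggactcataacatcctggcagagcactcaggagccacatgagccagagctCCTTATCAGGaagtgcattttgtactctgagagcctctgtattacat
HPGD: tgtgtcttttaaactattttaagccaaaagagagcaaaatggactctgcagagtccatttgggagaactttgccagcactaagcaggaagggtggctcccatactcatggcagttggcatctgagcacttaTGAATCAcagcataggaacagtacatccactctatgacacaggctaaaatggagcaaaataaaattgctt
FZD7: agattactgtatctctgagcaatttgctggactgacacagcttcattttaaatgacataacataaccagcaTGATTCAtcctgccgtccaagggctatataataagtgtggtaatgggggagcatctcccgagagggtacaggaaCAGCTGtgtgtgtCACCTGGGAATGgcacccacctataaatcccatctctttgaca
COL12A1: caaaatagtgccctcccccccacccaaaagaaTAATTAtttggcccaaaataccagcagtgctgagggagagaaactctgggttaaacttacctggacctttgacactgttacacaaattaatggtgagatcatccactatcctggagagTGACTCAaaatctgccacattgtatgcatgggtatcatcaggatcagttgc
RHOB: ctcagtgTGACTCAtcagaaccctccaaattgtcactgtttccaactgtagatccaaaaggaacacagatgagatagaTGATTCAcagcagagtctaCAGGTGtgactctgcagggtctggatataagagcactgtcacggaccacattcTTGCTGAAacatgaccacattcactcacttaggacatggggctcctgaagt

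The AP-1 letters TGANTCA began 53 bp to the right of the summit in the PTGFR window, 5 bp to its left in PTCHD4, 13 bp to its left in CREB5 and 31 bp to its right in HPGD. The TEAD letters GGAATG were found in the PHACTR1, PTCHD4, CREB5, FKBP9 and FZD7 windows, and in PHACTR1 they began 5 bp from the summit. PTCHD4, CREB5 and FZD7 held both. The RHOB window held 2 AP-1 matches, and an AP-1 match was the only listed motif in the HPGD window. A match describes the letters and does not show that a factor was bound. The distances hold for the summit of 1 library. The summits of the 4 day 4 libraries spanned 29 bp at PHACTR1, 45 bp at PTGFR, 47 bp at PTCHD4, 42 bp at CREB5 and 267 bp at HPGD. The median span was 122 bp at the 330 sites and 92 bp at the other sites with a peak in all 4 day 4 lists.

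The 330 sites stood at the end of a series of sites with fewer and fewer day 2 lists. Another 40988 sites had a peak in all 4 day 4 lists, and of these 1231 also had a peak in 1 day 2 list, 3172 in 2, 12339 in 3 and 24246 in all 4. The opposite pattern, a peak in all 4 day 2 lists and in no day 4 list, was found at 7 regions (0.00684%). Just outside the rule, 1364 regions had a peak in 3 day 4 lists and in no day 2 list, and D4 soft replicate 2 was the missing list at 577 of them (42.3%). Of the 1231 sites with a single day 2 list, 534 (43.4%) had that peak in D2 stiff replicate 2 and 51 (4.14%) in D2 soft replicate 1. A missing peak says that a site did not pass the caller's threshold in that library, not that its chromatin was closed.

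The number of sites moved with the length of the lists. With each list limited to its first 29789 peaks by p-value, the length of the shortest list, 49 sites had the day 4 pattern and 33 the opposite pattern, and 1 of the 330 sites was among the 49. With D2 soft replicate 1 kept whole and the other 7 lists limited to 55754 peaks, 185 sites had the day 4 pattern, 125 of which overlapped the 330, and 8 had the opposite pattern. Without D2 soft replicate 1 the counts were 381 and 135. The 4 day 4 libraries all had a higher estimated depth than any day 2 library, so day and depth cannot be told apart in these counts.

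The sites were weak peaks within the day 4 lists. Their median fold enrichment over the local background was 5.40 and 4.98 in the D4 soft replicates and 5.49 and 6.09 in the D4 stiff replicates. In the same libraries the other sites with a peak in all 4 day 4 lists had medians of 8.55, 7.74, 9.26 and 9.75. In each library the median of the 330 sites was thus the lower one. The pileup at the summit, recovered from the deposited values as a whole number of fragments, had medians of 9, 8, 11 and 10.

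Fold enrichment is relative to the background of its own library, so strength is given as a percentile. The list percentile is the place of a peak in its own list, near 0 for the weakest peak and 100 for the strongest. The mean list percentile over the 4 day 4 lists had a median of 27.6 for the 330 sites and 64.9 for the others. It rose with the number of day 2 lists, from 32.9 for 1 list over 40.5 for 2 and 55.1 for 3 to 74.2 for all 4. Of the 330 sites, 207 (62.7%) lay below the middle of all 4 lists, against 14.02% of the other sites. Another 6 lay above the middle of all 4 lists, and 31 had a mean list percentile over 50. The lists differ in length, and a longer list raises the percentile of a site, so soft and stiff are compared below by the rank percentile, the place of a site among the 41318 sites with a peak in all 4 day 4 lists. On this scale the medians of the 330 sites were 11.1 and 11.3 on soft and 8.09 and 10.7 on stiff.

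**Figure D1:**
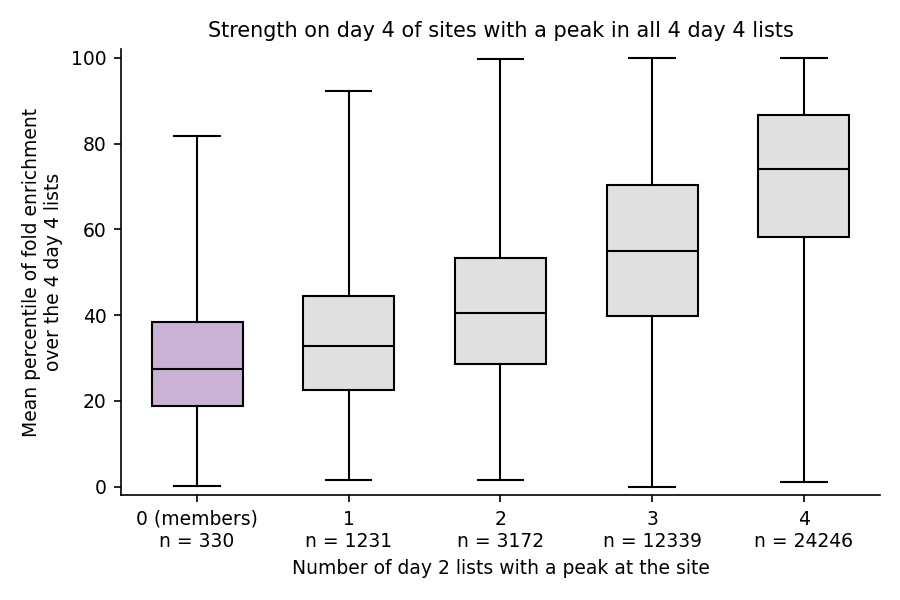
Mean list percentile of fold enrichment over the 4 day 4 lists (vertical axis, 0 for the weakest and 100 for the strongest peak) for sites with a peak in all 4 day 4 lists, by the number of day 2 lists with a peak (horizontal axis). Boxes give the quartiles and the median, and whiskers reach the lowest and the highest site. The median was 27.6 at the 330 sites (members) and 74.2 at the 24246 sites of all 8 lists.

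The day 4 libraries ordered the 330 sites loosely. Spearman's rho of the list percentiles across the 330 sites was 0.39 between the D4 soft replicates, 0.51 between the D4 stiff replicates and 0.35 to 0.48 between a soft and a stiff library. Across the other sites rho was 0.74 to 0.80. These are descriptions across sites of the same libraries.

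The strongest of the 330 sites lay between genes, 7.21 kb upstream of the nearest protein-coding start of PHACTR1, which encodes a regulator of actin and of protein phosphatase 1 (chr6:12709146-12710000). Its fold enrichment was 15.1 and 9.87 on soft and 9.30 and 11.02 on stiff, and its rank percentile was 97.5 and 76.3 on soft and 50.9 and 64.9 on stiff. The nearest day 2 peak was 7.74 kb away. PHACTR1 was also the nearest gene of a weaker site in its own intron, 42.0 kb from a start, with rank percentiles of 15.1 and 21.2 on soft and 43.01 and 42.3 on stiff. At the first site both stiff values were below both soft ones, and at the second they were above them.

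The next sites of the 20 strongest are taken up by what their nearest genes do, an order chosen after the sites had been ranked. The site nearest to DPYD, which encodes the first enzyme of pyrimidine breakdown, was 139 kb from its start and had rank percentiles of 84.6 and 92.4 on soft and 37.7 and 60.4 on stiff. The site in an intron of PTGFR, the receptor gene for prostaglandin F, had 50.4 and 31.8 on soft and 76.003 and 79.1 on stiff. The site in an intron of HPGD, whose product inactivates prostaglandins, had 30.6 and 6.75 on soft and 59.4 and 88.999 on stiff. The PTGFR and HPGD sites were higher in both stiff libraries, and the DPYD site in both soft libraries.

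The site nearest to CBLB, a ubiquitin ligase that restrains receptor signalling, was 97.9 kb from the start and had rank percentiles of 38.6 and 46.1 on soft and 58.3 and 71.6 on stiff. The site in an intron of PDE4D, a phosphodiesterase that breaks down cAMP, had 58.3 and 26.01 on soft and 63.5 and 53.3 on stiff. PROK2, a secreted prokineticin, and PTCHD4, a protein with a patched domain, were the nearest coding genes of sites 178 kb and 449 kb away. The CBLB site was higher in both stiff libraries, and at PDE4D the groups overlapped.

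TRPS1 is a repressor with a GATA-type zinc finger, CREB5 a bZIP factor that binds cAMP response elements, ZFPM2 a cofactor of GATA factors, MKX a homeobox factor of tendon and AUTS2 a partner of Polycomb proteins, and each of these 5 genes had its site in an intron. The TRPS1 site had rank percentiles of 55.8 and 82.7 on soft and 44.2 and 11.7 on stiff, the ZFPM2 site 19.1 and 30.6 on soft and 73.8 and 37.4 on stiff. The CREB5 site had 32.6 and 53.1 on soft and 54.3 and 30.1 on stiff. The stiff values were the lower ones at TRPS1 and the higher ones at ZFPM2, and they overlapped with the soft ones at CREB5 and MKX.

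The other sites among the 20 were nearest to CDH18, a cadherin, FKBP9, a prolyl isomerase of the endoplasmic reticulum, FRMD6, a FERM protein upstream in the Hippo pathway, ZDHHC17, a palmitoyltransferase, ITIH6, ANKRD36 and RIPOR3. The sites at FKBP9 and FRMD6 were the 2 of the 20 within 1 kb of an annotated start, and their nearest protein-coding starts were 19.1 kb and 32.8 kb away. The FKBP9 site had rank percentiles of 55.6 and 63.4 on soft and 26.6 and 23.2 on stiff. The CDH18 site lay between genes, 972 kb from the start of CDH18. Of the 20 sites, 10 were intronic and 8 intergenic. Both stiff scores were above both soft scores at 4 of the 20 and below them at 6, where all sites with 4 day 4 peaks had 18.2% above and 20.6% below.

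**Figure D2:**
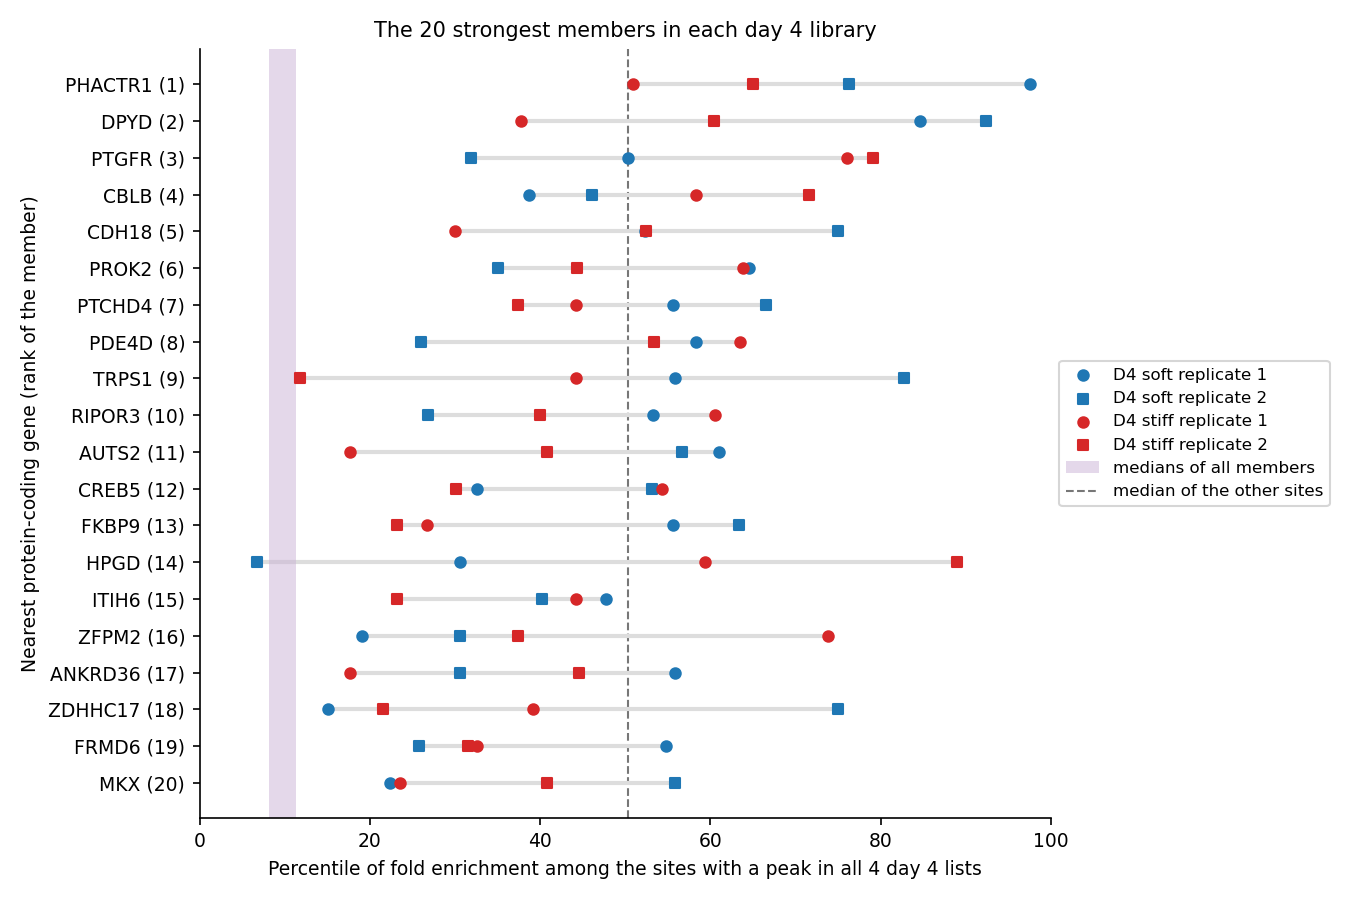
Rank percentile of fold enrichment among the 41318 shared sites (horizontal axis) for the 20 strongest of the 330 sites (members), named by the nearest protein-coding gene and ranked by mean list percentile (vertical axis). Each point is 1 day 4 library, and grey lines span the 4 libraries. The purple band spans the 4 library medians of the 330 sites (8.09 to 11.3), and the dashed line marks the median of the other sites, 50.4 in each library.

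The genes next to the sites were almost all different. The 330 sites had 317 nearest protein-coding genes, 1.60% of the 19794 in the annotation, of which 13 were nearest to 2 sites and 0 to more. These 13 were ADAMTS9, CDH18, EPG5, LYSMD4, MTRES1, OLFM4, PHACTR1, PRDM9, RIN2, SMYD3, STK25, TAFA5 and ZFPM2. At STK25, a kinase gene, 1 site lay 0.392 kb from the start and the other 5.11 kb upstream. The pairs of the other 12 genes were 30.7 to 999 kb apart, and 3 pairs of neighbouring sites lay within 50 kb of each other.

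Lists of genes with roles in stellate cells or in sensing the matrix were then compared with the nearest genes. Of 15 lists, 11 had a gene nearest to a site, with 20 genes and 21 sites in all. Each of the 11 lists took 0.303% to 0.909% of the 330 sites, while it took 0.393% to 1.15% of the other sites with 4 day 4 peaks. Over all 15 lists, the share of the set was the higher one for 5 and the lower one for 10.

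Matrix genes had 2 sites and matrix-remodelling genes 3. The COL12A1 site, in an intron of this fibril-associated collagen gene 1.15 kb from the start, had rank percentiles of 8.93 and 9.67 on soft and 23.6 and 39.5 on stiff. The site 29.6 kb upstream of FN1, the fibronectin gene, had 3.59 and 22.6 on soft and 0.605 and 1.40 on stiff. Both stiff values were the higher ones at COL12A1 and the lower ones at FN1. Of the proteases that cleave proteoglycans, ADAMTS9 had sites 3.29 kb and 221 kb upstream, and ADAMTS6 had 1 in an intron.

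Growth factor genes had 3 sites. The site in an intron of IGF1R, the receptor gene for insulin-like growth factors, had rank percentiles of 21.4 and 3.45 on soft and 13.1 and 45.7 on stiff. The site in an intron of the ligand gene IGF1 had 11.2 and 6.75 on soft and 10.2 and 13.9 on stiff. PDGFD, a ligand of the platelet-derived growth factor receptor to which stellate cells respond, was the nearest coding gene of a site 288 kb away with 0.228 and 8.83 on soft and 51.1 and 4.07 on stiff. The groups overlapped at all 3 sites.

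Among adhesion and cytoskeleton genes, the site 44.2 kb upstream of ITGA1, a collagen-binding integrin subunit, had rank percentiles of 53.1 and 6.75 on soft and 8.09 and 15.03 on stiff. The site 15.95 kb upstream of the small GTPase gene RHOB had 33.4 and 24.1 on soft and 4.20 and 10.4 on stiff. The groups overlapped at ITGA1, and both stiff values were below both soft values at RHOB. The formin gene DIAPH1 had a site in an intron, and CDH6 and CDH10, cadherin genes, were nearest to sites 1090 kb and 339 kb away.

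Signalling genes had 5 sites. FZD7, a Wnt receptor gene, had a site 19.3 kb upstream with rank percentiles of 13.01 and 42.98 on soft and 22.6 and 15.4 on stiff. NOTCH3 had an intronic site 5.43 kb from its start with 1.67 and 5.74 on soft and 6.98 and 2.90 on stiff. GREM1, a secreted antagonist of bone morphogenetic proteins, had an intronic site 11.8 kb from its start that was weak in all 4 libraries, with 1.17 and 3.02 on soft and 1.49 and 1.64 on stiff. INHBA, the gene of an activin subunit, and the chemokine gene CXCL12 were nearest to sites 192 kb and 282 kb away.

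Of the transcription factor and cell cycle genes, SOX5 had an intronic site with rank percentiles of 45.4 and 24.5 on soft and 10.8 and 22.2 on stiff. GATA4, a factor of quiescent stellate cells, had a site 0.183 kb from a start with 8.48 and 0.271 on soft and 0.547 and 3.11 on stiff. The site nearest to CDKN2B, an inhibitor of cell cycle kinases, lay in an exon of the antisense gene CDKN2B-AS1, 21.1 kb from the CDKN2B start. Both stiff values were below both soft values at SOX5, and the groups overlapped at GATA4.

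The lists of AP-1 factors (18 genes), of the Hippo pathway and YAP targets (26 genes), of retinoid and lipid metabolism in quiescent stellate cells (33 genes) and of semaphorins, netrins and slits with their receptors (29 genes) had 0 genes nearest to a site. Of the other sites with 4 day 4 peaks, 0.183%, 0.346%, 0.315% and 0.532% were nearest to genes of these lists, so that a set of 330 sites is too small to show whether it differs. The lists do not hold every gene of their kind. The semaphorin gene SEMA6D had an intronic site 8.03 kb from its start, with rank percentiles of 27.9 and 13.4 on soft and 4.51 and 66.3 on stiff, and FRMD6 of the Hippo pathway was nearest to a site described above. Both genes are outside these lists and were picked out after the sites were seen.

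Near protein-coding starts, 33 of the sites lay within 1 kb. The strongest was 1 bp from a start of ZNF528, a zinc finger gene, with rank percentiles of 47.7 and 21.6 on soft and 16.3 and 51.2 on stiff. The site at SPC25, a kinetochore gene, had 15.1 and 30.6 on soft and 4.77 and 37.4 on stiff. The site at PIK3R1, the gene of a regulatory subunit of phosphoinositide 3-kinase, had 10.1 and 6.19 on soft and 43.7 and 18.2 on stiff. The groups overlapped at ZNF528 and SPC25, and both stiff values were the higher ones at PIK3R1.

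The other 9 of the 12 strongest at coding starts were those of MAPK10, a JUN N-terminal kinase, DCAF8, a substrate receptor of a ubiquitin ligase, TRAPPC10, a vesicle tethering factor, CDH15, a cadherin of muscle, GAS8, a ciliary protein, EPB41L4A, LMTK3, LRRN4 and CCDC85C. The MAPK10 site had rank percentiles of 13.8 and 13.4 on soft and 12.5 and 11.7 on stiff, so that its 4 values lay close together. The LMTK3 site had 1.65 and 11.9 on soft and 7.26 and 38.8 on stiff. Their mean list percentiles lay between 20.8 and 30.2, close to the median of the set.

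Promoters were a smaller part of these sites than of other open sites. The centre of 56 sites, 17.0% (95% Wilson interval 13.3 to 21.4%), lay within 1 kb of an annotated start, against 35.04% of the other sites with 4 day 4 peaks. Introns held 162 sites (49.1%), intergenic sequence 96 (29.1%) and exons 16 (4.85%), and of the other sites 38.5%, 23.7% and 2.75%. The intervals cover counting error only. Within 2.5 kb of a start the share of the sites was 23.9%.

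The promoter share rose with the number of day 2 lists, from 18.1% for 1 list over 19.7% for 2 and 28.3% for 3 to 41.3% for all 4. It was 14.5% at the regions with 3 day 4 lists and no day 2 list. Among sites below the middle of all 4 day 4 lists, 20.3% of 207 from this set and 39.4% of 5745 other sites were promoters. The 56 promoter sites were weaker than the other 274, with a median mean list percentile of 19.4 against 28.6.

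**Figure D3:**
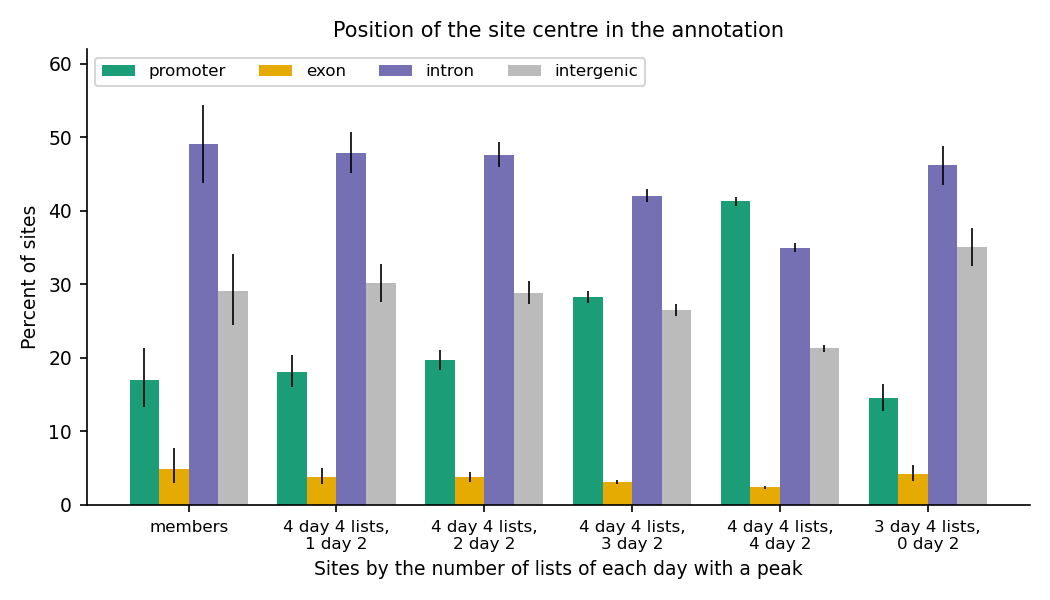
Percent of sites (vertical axis) whose centre lay at a promoter, in an exon, in an intron or between genes, for the 330 sites (members) and for sites grouped by the number of lists of each day with a peak (horizontal axis). Bars start at 0, and lines are 95% Wilson intervals. The promoter share is 17.0% at the 330 sites and 41.3% at the sites of all 8 lists.

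The median distance to a protein-coding start was 35.7 kb, against 18.3 kb for all other sites with 4 day 4 peaks. It was 33.1 kb at those with 1 day 2 list, 33.2 kb at those with 2 and 39.6 kb at the regions with 3 day 4 lists and no day 2 list, so the sites were close to the sets most like them. Of the 330, 91 sites (27.6%, against 19.3%) were more than 100 kb away, while 175 (53.0%) lay inside a protein-coding gene. The nearest day 2 peak was between 54 bp and 282 kb away, with a median of 9.54 kb. For 169 sites (51.2%) it was within 10 kb, for 20 within 1 kb, and for 12 more than 100 kb away. The site farthest from a day 2 peak, picked out after the distances were seen, was nearest to the homeobox gene IRX1. The merged regions were narrow, with a median width of 592 bp against 869 bp. That width was 636 bp at the sites with 1 day 2 list and 519.5 bp at the regions with 3 day 4 lists and no day 2 list.

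Within 100 bp of the summit the median share of G and C was 45.3%, against 50.2% at all other sites with 4 day 4 peaks. It was 45.8% both at those with 1 day 2 list and at the regions with 3 day 4 lists and no day 2 list. Within the set it was 60.9% at the 56 promoter sites and 43.8% at the other 274. The GC box GGGCGG, the motif of SP factors, matched on either strand in 9.09% of the sites and 22.03% of the others, with 10.2% and 8.72% in these more similar sets. The ETS letters CCGGAAG matched in 1.52% and 5.07%, with 2.36% and 1.32% in these more similar sets. Outside promoters the GC box was found in 4.74% (2.79 to 7.95%) of the 274 sites and in 6.58% of 26624 other sites, so that the difference was within counting error there. At promoters it was found in 17 of the 56 sites (30.4%, 19.9 to 43.3%) and in 50.7% of 14364 others, above that interval.

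The AP-1 letters matched in 131 sites, 39.7% (34.6 to 45.1%), and in 38.3% of the other sites. They matched in 41.6% of the sites with 1 day 2 list and in 39.5% of the regions with 3 day 4 lists and no day 2 list. Outside promoters they matched in 45.3% (39.5 to 51.2%) of the 274 sites and in 51.4% of the 26624 others, just above that interval. At promoters they matched in 7 of 56 sites (12.5%) and 13.9% of 14364 others. Below the middle of all 4 day 4 lists, promoters included, they matched in 34.3% (28.2 to 41.0%) of 207 sites and in 29.0% of 5745 others. With C or G in the middle, the classical AP-1 site, the shares over all positions were 30.6% and 29.96%. The sites with AP-1 letters had a median mean list percentile of 31.5, and those without 25.3. The matches lay near the summit, with 41 sites (12.4%) in the 40 bp to its left, 48 (14.5%) in the 40 bp to its right and 2 to 6 sites in each 40 bp beyond 120 bp. The other sites had a like pattern, with 11.4% to the left, 11.3% to the right and 1.86 to 2.76% in each 40 bp beyond 120 bp.

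The TEAD letters matched in 65 sites (19.7%, against 18.5%), and 24 sites (7.27%, against 7.45%) held TEAD and AP-1 letters. At least 1 of these motifs was found in 172 sites (52.1%) and in 49.3% of the others. The shares of the others lay within the interval of the set for the CCAAT letters bound by NF-Y (25.2% against 25.4%), the E-box CAGCTG (12.1% against 13.97%), the GATA letters AGATAA (11.8% against 9.79%), the ZEB/SNAI E-box CAGGTG (10.3% against 8.19%), the RUNX letters TGTGGTT (8.18% against 6.30%) and the FOX letters TGTTTAC (4.24% against 2.76%). They lay below it for the homeobox letters TAATTA (5.76%, 3.72 to 8.82%, against 2.71%), and just below it for the CEBP letters TTGCNNAA (11.2%, 8.24 to 15.1%, against 8.07%) and the CTCF motif (4.55%, 2.77 to 7.36%, against 2.49%). These 3 shares were 3.09%, 8.20% and 4.96% at the sites with 1 day 2 list, and 4.18%, 9.68% and 5.94% at the regions with 3 day 4 lists and no day 2 list, so that CTCF was at least as common in the sets most like this one. At promoters the CCAAT letters matched in 7 of 56 sites (12.5%, 6.19 to 23.6%) and in 28.0% of 14364 others, above that interval. Outside promoters they matched in 27.7% (22.8 to 33.3%) of 274 sites and in 24.0% of 26624 others, within the interval.

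The rarer motifs were seen in at most 5 of the sites. They were the STAT letters TTCCNGGAA with 5 sites, the CArG box of SRF and the MEF2 motif with 3 each, the glucocorticoid response element with 2, the cAMP response element TGACGTCA and the NFI palindrome with 1 each, and the DR1 motif of nuclear receptors with 0 of 330, which by the limit of 3 counts allows a share of up to 0.909%. Shares at the 330 sites and at the other sites were 1.52% and 1.04% for STAT, 0.909% and 1.08% for CArG and 0.909% and 1.17% for MEF2. They were 0.606% and 0.254% for the glucocorticoid element, 0.303% and 0.800% for the cAMP element and 0.303% and 0.0293% for NFI. For DR1 they were 0% and 0.0146%. Only for NFI did the share of the others lie outside the interval of the set (0.0535 to 1.70%), which rests on 1 site. Of the 330 sites, 44 had none of the 20 motifs, 114 had 1 and the others 2 to 5. Matches of different motifs could overlap.

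**Figure D4:**
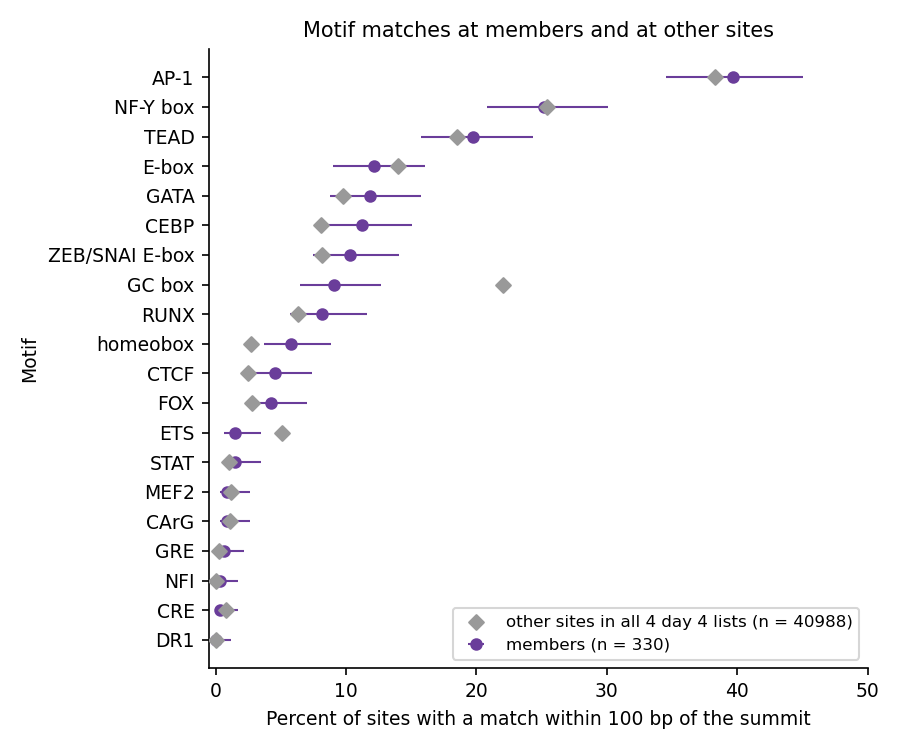
Percent of sites (horizontal axis) with at least 1 match of each motif (vertical axis) within 100 bp of the summit, on either strand. Purple points are the 330 sites (members) with 95% Wilson intervals, grey diamonds the 40988 other sites with a peak in all 4 day 4 lists, and NF-Y box stands for the CCAAT letters. AP-1 is the most common motif in both (39.7% and 38.3%), and the GC box shows the widest gap (9.09% and 22.03%).

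The rule did not set the matrices against each other, since it asked for a peak in every soft and every stiff library of day 4. It did use the presence of peaks in these same lists, which did not limit it alike. At the regions with 3 day 4 lists and no day 2 list, the missing list was D4 soft replicate 1 at 322 and replicate 2 at 577. It was D4 stiff replicate 1 at 285 and replicate 2 at 180. Whether this moved the balance of soft and stiff at the 330 sites was not tested. Fold enrichment was ranked within each list over the 41318 sites with 4 day 4 peaks and turned into normal scores, and D4 stiff was compared with D4 soft by limma with Benjamini-Hochberg adjustment. Of all sites 1 (0.00242%) was called, and of the 330 sites 0, the lowest adjusted p being 0.388. At an unadjusted limma p under 0.05 there were 45 of the 330 (13.6%), 16 higher and 29 lower on stiff, where the whole table had 8.17%. The balance moved with the fit, to 14 higher and 50 lower on ranks of −log10 p (8.82% of the whole table) and to 16 higher and 15 lower without D4 stiff replicate 1 (5.79%). Both stiff scores were above both soft scores at 44 of the sites (13.3%, against 18.2% in the whole table) and below them at 76 (23.03%, against 20.6%). The median difference was -0.09 score units, against -0.02 over all sites. It was -0.24 against 0.0013 on ranks of −log10 p, and -0.02 at the 330 sites as over all sites without D4 soft replicate 2. A p that misses the threshold with 2 libraries a group does not show that the matrices were alike.

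The sites with the lowest p were those of HPGD, H2BC13, ZFPM2, CDH9 and SUPT3H. The HPGD site, described above, differed by 1.73 ± 0.47 score units (SE, 2 against 2 libraries, limma unadjusted p = 0.00138, adjusted p = 0.388). The site nearest to the histone gene H2BC13 had rank percentiles of 7.57 and 9.05 on soft and 0.157 and 0.45 on stiff. The weaker of the ZFPM2 sites had 36.01 and 47.7 on soft and 4.77 and 7.27 on stiff. The stiff values were the lower ones at both, whereas the stronger ZFPM2 site had the higher values on stiff.

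The site nearest to the cadherin gene CDH9 had rank percentiles of 3.48 and 0.514 on soft and 15.97 and 26.6 on stiff. The site in an intron of SUPT3H, a subunit of histone acetyltransferase complexes, had 3.95 and 0.356 on soft and 17.7 and 23.2 on stiff. At both the stiff values were the higher ones. The adjusted limma p of these 5 sites was between 0.388 and 0.485, so none of the differences passed the test. Their directions were the same under each of the other fits in which the site was measured. At each of them both stiff values lay on the same side of both soft values. Leaving out a library or adding the replicate block therefore could not turn the direction, and the agreement of these fits adds nothing.

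**Figure D5:**
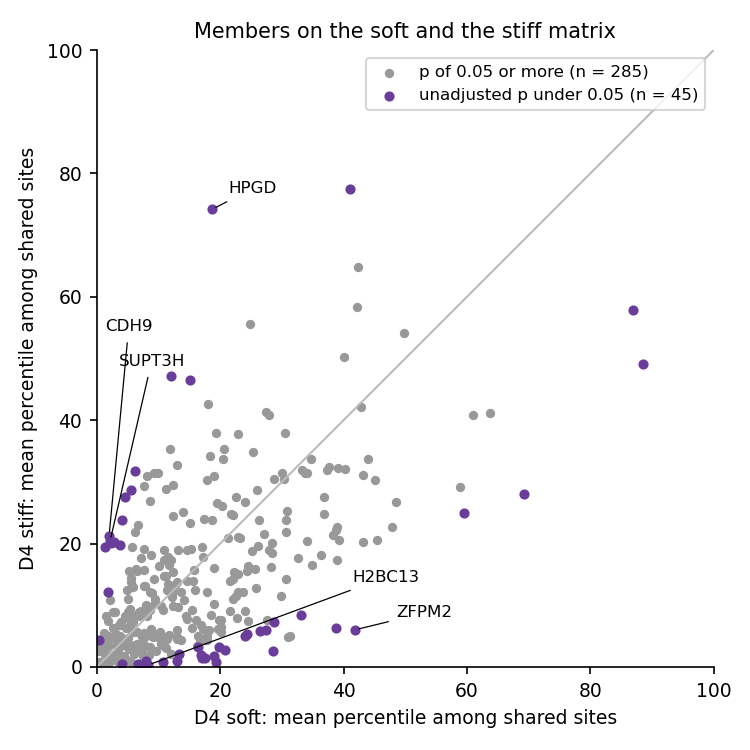
Mean rank percentile of fold enrichment in the 2 D4 soft libraries (horizontal axis) and in the 2 D4 stiff libraries (vertical axis) for each of the 330 sites (members), with the line of equal values. Purple points are the 45 sites with an unadjusted limma p under 0.05, and the 5 with the lowest p are named. The purple points lie on both sides of the line, 29 lower and 16 higher on stiff in this fit, but 15 lower and 16 higher without D4 stiff replicate 1.

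The weakest sites of the set were at PTMS, the gene of parathymosin, at TMEM201, which encodes a protein of the inner nuclear membrane, and 218 kb from HS3ST3A1, a heparan sulfate sulfotransferase gene. The PTMS site, at the promoter, had fold enrichments of 2.75 and 2.70 on soft and 2.67 and 2.48 on stiff, with 24, 23, 35 and 27 fragments at the summit. The HS3ST3A1 site had 3.21 and 3.84 on soft and 3.84 and 3.72 on stiff, with 4, 5, 6 and 5 fragments. The PTMS site thus combined a pileup above the median of the set in every library with its lowest fold enrichment.

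Just outside the rule, the strongest regions of 3 day 4 lists and no day 2 list were at TSPAN19, a tetraspanin gene, with fold enrichments of 12.1 and 10.5 on soft and 10.6 in D4 stiff replicate 1, and in an intron of PLCZ1, a sperm phospholipase gene, with 10.1 and 9.43 on soft and 12.7 in D4 stiff replicate 2. Of the sites with 4 day 4 lists and 1 day 2 list, the strongest were nearest to RP11-685N3.1 and to RCL1, and both had their day 2 peak in D2 stiff replicate 2, with 13.9 and 12.99. The mean list percentiles of the RP11-685N3.1 and RCL1 sites were 92.2 and 87.8, above the 81.7 of the strongest site of the set. Those of the TSPAN19 and PLCZ1 regions, 85.2 and 81.995, are means over the 3 lists with a peak. They leave out the list without one, so they cannot be set against the 81.7, a mean over 4 lists.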

How the data were processed

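The authors trimmed the ATAC-seq reads with Trim Galore, mapped them to hg19 with Bowtie2 2.4.1 and called peaks for each library with MACS2 at a q-value up to 0.05, further options being not given in the sources used here. Per the labels, bedtools 2.24.0 and Picard were also used. Each deposited list gives a fold enrichment (a ratio to the background around the peak), −log10 p and −log10 q, and the summit as another column written by the authors' caller, while the deposited score was not used.

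Reads were not used here, so limma 3.58.1 (lmFit and eBayes, 2 group means) was fitted to within-list ranks in place of the study's count model. On simulated data for D4 stiff against soft (41318 sites), it recovered 6% of 200 sites with 2-fold and 84% of 200 with 4-fold changes. Under an added SD of 0.3 (log2) it recovered 0% and 66.5%. The changed sites were drawn from all 41318, so these shares do not describe the 330. Median summit pileups of the other sites were 22 and 19 on soft and 33 and 29 on stiff, above those of the 330. The median residual SD was 0.532 to 0.546 without and 0.675 to 0.690 with the added SD, against 0.429 in the main fit. Depth came from the lists, assuming a MACS2 pseudocount of 1. Annotation was GENCODE release 44 on GRCh37.

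Named were the 20 strongest sites, up to 12 at coding starts, those nearest to listed genes, genes with 2 or more sites, the 3 weakest, 2 of each kind just outside and the 5 of lowest p. The sites, gene lists, motifs and alternatives were chosen with earlier results of these data known. Python 3.11.15, pandas 2.3.3, pysam 0.24.0 and R 4.3.3 were used.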

Additional observations from a re-analysis of the deposited data

Results flagged for a closer look

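Among the day 2 libraries, D2 soft replicate 1 lay far below the remaining 3 in estimated depth, with 0.780 fragments per kb where the next library had 2.08. It decided few of the sites, since 381 had the day 4 pattern without it and 330 with it, but the opposite pattern was found at 135 regions without it and at 7 with it. Among the day 4 libraries, D4 stiff replicate 1 had the widest peaks, with a median of 587 bp where the next library had 463 bp. Without this library 615 sites had the day 4 pattern. The part of the wider peaks in the results was not tested. Of 10 sets of 4 libraries examined in this way 2 stood out, where chance gives about 1 in 20.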

How the results depend on the processing

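With lists of equal length the number of sites was 49 (opposite pattern 33), and with 7 lists of equal length and D2 soft replicate 1 whole, an alternative chosen after seeing the data, it was 185 (opposite pattern 8). A q of 0.01, a gap of 500 bp to day 2 peaks or a common base of the 4 peaks gave 298 to 321. With 1 library left out, where fewer lists enter the rule, it was 381 to 908, and the opposite pattern was at 10 to 135 regions. Beyond 1.5 times were 663 without D2 soft replicate 2, 647 without D2 stiff replicate 1, 863 without D2 stiff replicate 2, 651 without D4 soft replicate 1, 908 without D4 soft replicate 2 and 615 and 514 without D4 stiff replicates 1 and 2. The opposite pattern was at 135 without D2 soft replicate 1, and at 10 to 19 without any of the others.

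The promoter share was 23.9% within 2.5 kb and 14.3 to 18.3% with 1 library left out. The AP-1 share was 51.02% of the 49 sites from lists of equal length, 30.6% with C or G in the middle (chosen after seeing the data) and 37.8 to 41.5% with 1 library left out. The TEAD share was 28.2% within 200 bp of the summit and 16.3 to 20.9% with 1 library left out. The median GC share stayed between 44.8 and 45.8% with 1 library left out.

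Of the 330 sites 0 were called between the matrices in every fit that held them. Over all sites limma called 0 on ranks of −log10 p, 0 on log2 fold enrichment, and 2 to 8 with 1 library left out, where the lone library was assumed to vary like the other group. With all 8 libraries it called 2 of the 24246 sites in all 8 lists, which hold none of the 330. With the replicate block it called 65 of 41318, and the lowest adjusted p among the 330 was 0.0847. Libraries of the same number deviated from their group means with a correlation of -0.00886, and nothing in the labels ties the numbers together. The peak names inside 5 of the 8 lists carry other numbers than the labels, so the block rests on numbers that are in doubt. Of the 330 sites, 273 were outside the first 29789 peaks of all 4 day 4 lists. What part depth has in this was not tested.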

Other observations

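Cadherin genes were the nearest protein-coding genes of 7 sites, 2.12% of the 330, against 0.5001% of the other sites with 4 day 4 peaks. The family was picked after the nearest genes had been seen, so it was not tested. The list of cadherins, catenins and cell junctions took 0.606% of the 330 sites and 0.778% of the others. It holds CDH6 and CDH10 but not CDH9, CDH15, CDH18 or CDH20, so it counts only 2 of the 7 sites. The 2 CDH18 sites were 20.5 kb and 972 kb from a start, and the CDH6 and CDH10 sites were distant as given above. The genes were CDH6, CDH9, CDH10, CDH15, CDH18 and CDH20, and 5 of the 7 sites lay on chromosome 5. The CDH15 site, at the promoter, had rank percentiles of 13.5 and 0.968 on soft and 5.57 and 12.7 on stiff. The CDH20 site, 398 kb from a start, had 15.1 and 26.6 on soft and 4.77 and 0.684 on stiff, and both stiff values were below both soft values. Zinc finger genes named ZNF were nearest to 5 sites (1.52%, against 1.74% of the others).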
